A study of Homo sapiens with 8 samples.

Results

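The 9 genes described here encode parts of the MHC class I pathway: the heavy chains HLA-B, HLA-C and HLA-E, the light chain B2M, the peptide transporter subunits TAP1 and TAP2, the immunoproteasome subunits PSMB8 and PSMB9, and the peptide-trimming enzyme ERAP1. They were taken by name from a table of 60666 Ensembl gene IDs in which each had 1 ID, and all 9 were among the 13493 genes tested. The libraries are bulk RNA sequencing of MRC5, a human lung fibroblast line in long use, with 2 libraries in each of 4 groups: shMTHFD2 cells with TGF-β1, shMock cells with TGF-β1, shMTHFD2 cells without it (control) and shMock cells without it (control). All cells carried a hairpin, which was either directed against MTHFD2, an enzyme of mitochondrial folate metabolism, or a mock. TGF-β1, a cytokine that activates fibroblasts into matrix-producing myofibroblasts, was given at 4 ng (the volume is not stated) for 24 h. The series set out to follow what MTHFD2 loss does to fibroblast transcription, with tumour growth and immune evasion as its setting. The labels name the hairpin only as shMTHFD2 or shMock, and its sequence and whether more than 1 was used are not given. There was no rescue and there were no untransduced cells, so loss of MTHFD2 and any other difference between the lines cannot be told apart. The labels do not say whether the libraries of a group came from separate cultures, and p-values therefore measure the spread between libraries, which may be technical. Groups were taken from the sample titles, because the genotype field of 3 shMTHFD2 libraries names other genes and the extraction text names another cell line and hairpin.

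Class I molecules show short peptides from proteins made inside a cell to CD8 T cells. The proteasome cuts the proteins, and interferon-γ replaces its constitutive catalytic subunits by immunoproteasome subunits. TAP1 and TAP2 form the pump that carries the peptides into the endoplasmic reticulum, ERAP1 trims them there, and the peptides are then loaded onto a heavy chain paired with B2M. HLA-B and HLA-C present peptides broadly, whereas HLA-E mainly presents leader peptides of other class I chains and is read by natural killer cells. Most fibroblasts express the pathway at a basal level, and interferon raises it through factors such as IRF1 and the coactivator NLRC5.

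Library totals ran from 18162738 to 22221927 counts, and replicates correlated at 0.984 to 0.988 across genes on the log scale (genes are not independent replicates). Levels are CPM, counts scaled to the same library size with trimmed-mean factors. With TGF-β1, MTHFD2 had 93.8 and 91.9 CPM in shMTHFD2 and 256 and 258 CPM in shMock, and without it 14.9 and 18.7 CPM in shMTHFD2 and 58.8 and 57.1 CPM in shMock. It was thus 2.77-fold lower in shMTHFD2 with TGF-β1 and 3.46-fold lower without it (edgeR adjusted p = 8.70e-07 and 3.51e-07). Markers of fibroblasts (9 genes, none at 0) summed to 30579 to 54250 CPM, and 5 epithelial markers to at most 2.35 CPM. Of 5 endothelial markers, PECAM1 and CDH5 were at 0, VWF was at most 2.32 CPM, and KDR and TEK were detected in all 8 libraries. Among 4 leukocyte markers CD3E was at 0 and PTPRC had counts in 1 library. CD14 had counts in all 8 libraries, at most 1.04 CPM, and CD68 had 46.8 to 106 CPM. The class II genes HLA-DRA, HLA-DRB1 and HLA-DQA1 were at 0 in all 8 libraries. HLA-DPA1 had 4 counts in shMock control replicate 1 alone, and the class II pathway genes CIITA and CD74 were at most 0.230 and 0.197 CPM.

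On GRCh38 with GENCODE release 29, 7 of the 9 genes lie on chromosome 6. PSMB9 (ENSG00000240065; plus strand, 32844136 to 32859585) and TAP1 (ENSG00000168394; minus strand, 32845209 to 32853978) run in opposite directions, with PSMB8 (ENSG00000204264; minus strand, 32840717 to 32844703) and TAP2 (ENSG00000204267; minus strand, 32821833 to 32838780) beside them. HLA-E (ENSG00000204592; plus strand, 30489467 to 30494205), HLA-C (ENSG00000204525; minus strand, 31268749 to 31272130) and HLA-B (ENSG00000234745; minus strand, 31269491 to 31357188) lie closer to the end of the same arm. B2M (ENSG00000166710) is on chromosome 15, plus strand, 44711487 to 44718877, and ERAP1 (ENSG00000164307) is on chromosome 5, minus strand, 96760810 to 96808100. All 9 are protein-coding. How reads shared by genes were counted is not given, nor is the strand setting, which leaves some counts uncertain. The annotated span of HLA-B, 87.7 kb, takes in exons of HLA-C on the same strand, and class I heavy chains are near-identical in places. PSMB8 and PSMB9, on opposite strands, have exons that overlap each other, so their counts may not be fully separate. PSMB8, PSMB9 and TAP1 have exons that overlap PSMB8-AS1, TAP2 overlaps AL669918.1, and ERAP1 overlaps CAST on the opposite strand.

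Promoter sequences are shown because the known regulators of these genes bind there and some of them were measured too. RefSeq promoter windows (GRCh38.p14, 300 bases around a start site) were available for 8 of the 9 genes, in 11 windows, and HLA-E had none. They were searched on both strands for the core of the interferon-stimulated response element (GAAA, any 2 bases, GAAA), which 3.57% of 35116 windows of all genes hold. The gamma-activated sequence TTCNNNGAA is in 7.66% of windows, and the Y box core CTGATTGG, part of the class I promoter module read by NLRC5 partners, is in 3.97%. The response element core was found in TAP1, TAP2, PSMB8, B2M and ERAP1. The Y box core was in HLA-B, HLA-C and B2M, and the gamma-activated sequence in PSMB8 and TAP1. Counted per gene, as here, 4.38%, 4.75% and 9.38% of 27305 genes hold these motifs, in that order. The window of PSMB9 held none of them. In ERAP1 the match begins 2 bases after the start, and in PSMB8 the response element core spans a start. The TAP1 gamma-activated sequence is in the window of another start, which is not shown. Each line below gives the bases before the start site, 5′ to 3′ on the gene's strand, with matches in capitals. They are TAP1 (chr6:32853705-32853854, minus strand), PSMB9 (chr6:32854042-32854191, plus strand), TAP2 (chr6:32838740-32838889, minus strand), HLA-B (chr6:31357180-31357329, minus strand), HLA-C (chr6:31272093-31272242, minus strand) and B2M (chr15:44711367-44711516, plus strand).
TAP1: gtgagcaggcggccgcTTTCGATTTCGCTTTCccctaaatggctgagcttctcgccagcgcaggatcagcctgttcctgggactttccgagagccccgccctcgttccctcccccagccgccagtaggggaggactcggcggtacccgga
PSMB9: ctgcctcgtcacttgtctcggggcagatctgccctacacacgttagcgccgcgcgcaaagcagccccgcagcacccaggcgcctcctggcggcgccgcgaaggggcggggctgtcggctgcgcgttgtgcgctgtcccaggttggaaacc
TAP2: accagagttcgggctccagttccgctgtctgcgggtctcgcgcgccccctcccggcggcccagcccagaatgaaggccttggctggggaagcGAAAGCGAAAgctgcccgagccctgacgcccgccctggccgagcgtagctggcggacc
HLA-B: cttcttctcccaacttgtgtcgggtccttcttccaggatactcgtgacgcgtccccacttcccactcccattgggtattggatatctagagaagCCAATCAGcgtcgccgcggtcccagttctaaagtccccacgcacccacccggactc
HLA-C: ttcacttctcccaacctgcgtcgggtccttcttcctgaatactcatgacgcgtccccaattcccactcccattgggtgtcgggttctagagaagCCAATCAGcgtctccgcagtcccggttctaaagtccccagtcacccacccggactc
B2M: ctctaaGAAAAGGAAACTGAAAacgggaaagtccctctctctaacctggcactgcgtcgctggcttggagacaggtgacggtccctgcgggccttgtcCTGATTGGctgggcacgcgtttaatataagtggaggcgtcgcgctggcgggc

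TAP1 and PSMB9 start 488 bases apart on opposite strands. In TAP1 the capitals hold 2 overlapping matches to the response element core, which begin 134 and 128 bases before the start. These matches (chr6:32853823-32853838) lie between the starts of TAP1 and PSMB9 but outside the window searched for PSMB9 (chr6:32853942-32854241). The lack of a match in the PSMB9 window therefore does not cover the whole stretch between the starts. TAP2 holds 1 match, beginning 58 bases before its start. B2M holds 2 overlapping matches, at 144 and 138 bases, and its Y box core begins 52 bases before the start. In HLA-B and HLA-C alike the Y box core begins 56 bases before the start. A match is a run of letters and was not tested for binding.

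Per length of transcript the genes differed widely in level. As CPM divided by the length of the principal transcript in kilobases (RPKM), shMock control cells held 1016 ± 39.8 of B2M (SD, n = 2 libraries, as throughout), 625 ± 17.6 of HLA-C, 449 ± 3.31 of HLA-B and 262 ± 3.83 of HLA-E. The processing genes were lower, at 81.0 ± 2.7 RPKM for PSMB8, 70.6 ± 0.918 for TAP1, 36.3 ± 0.984 for PSMB9, 15.8 ± 0.409 for TAP2 and 11.7 ± 1.37 for ERAP1. This order of the 9 group means was the same in all 4 groups. In shMock control the libraries of neighbours in it did not overlap. With the hairpin against MTHFD2 or with TGF-β1, some neighbours came together: TAP2 and ERAP1 overlapped in shMTHFD2 control, PSMB9 and TAP2 overlapped in both TGF-β1 groups, TAP2 and ERAP1 also in shMTHFD2 TGF-β1, and PSMB8 and TAP1 in shMock TGF-β1.

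**Figure D1:**
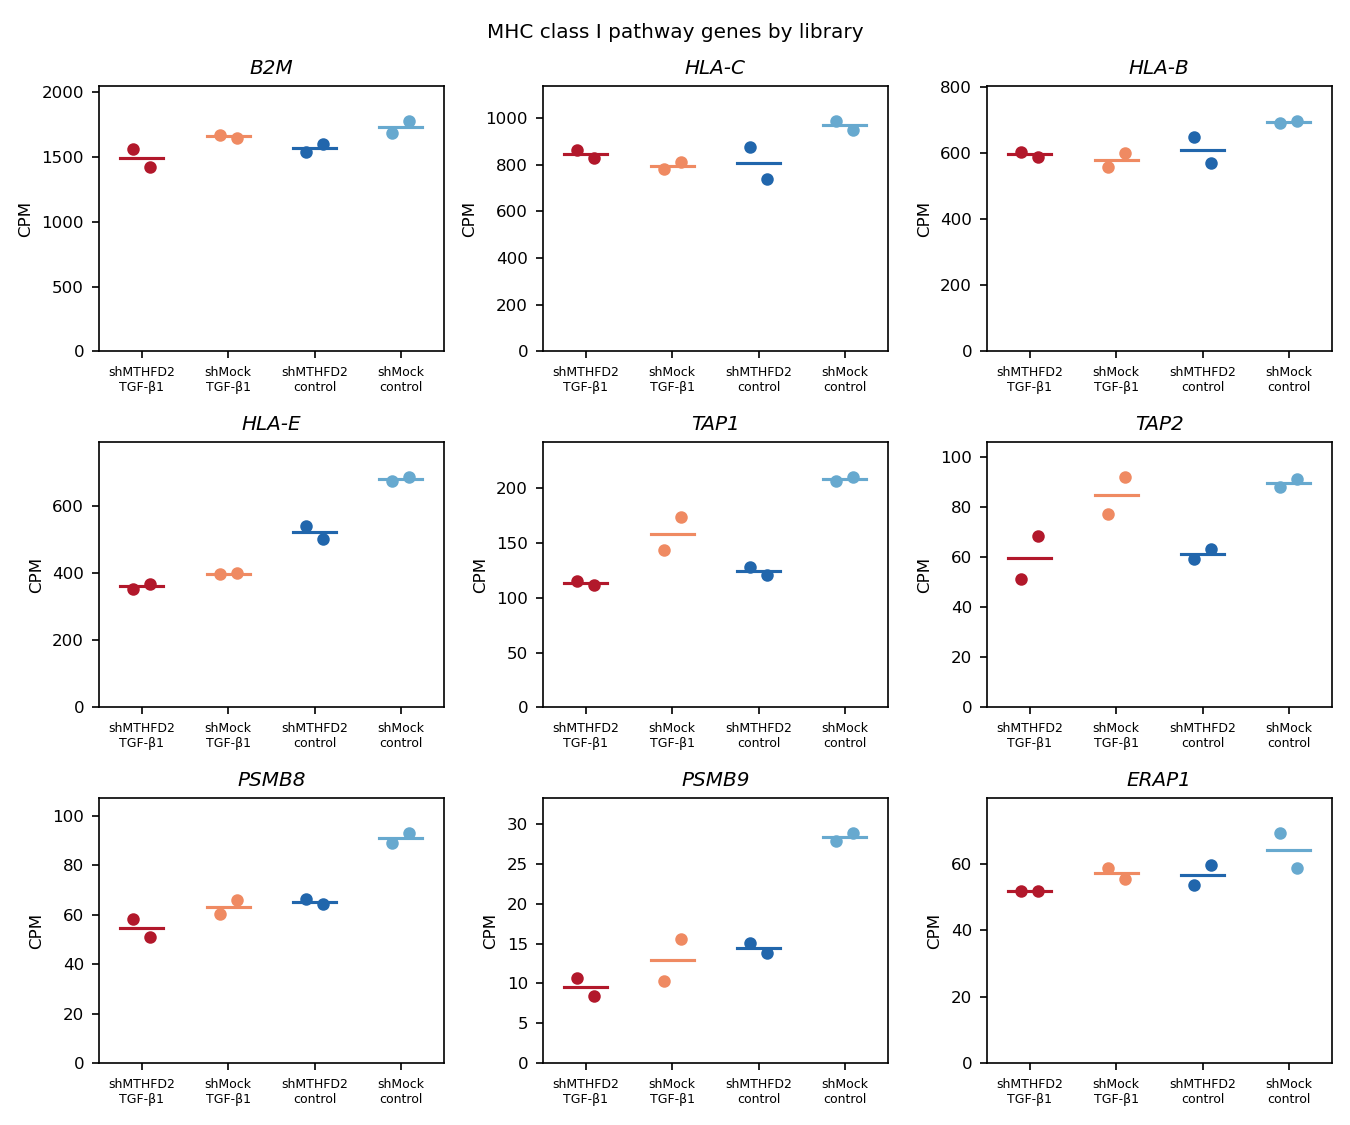
Level of each of the 9 genes in CPM (linear axis from 0, a scale per gene) in the 8 libraries. Points are libraries and bars are group means, with the shMTHFD2 group left of the shMock group under each treatment. Both shMock control libraries lie above the other 6 for 7 of the 9 genes, the exceptions being TAP2 and ERAP1. The share of all tested genes that do so was not counted, so this count has no background to be read against.

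The comparison of shMTHFD2 with shMock cells asks what the hairpin changed, and was made with and without TGF-β1. With TGF-β1 the transporter genes TAP1 and TAP2 were lower and the other 7 genes did not pass the threshold (edgeR's quasi-likelihood test, Benjamini-Hochberg adjusted p under 0.05 over all tested genes). Without TGF-β1 there were 5 lower genes: TAP1, TAP2, PSMB8, PSMB9 and HLA-E. No gene of the 9 was called higher under either condition. Across all tested genes 8.23% were called lower and 4.83% higher with TGF-β1, and 8.19% lower and 3.25% higher without it. The median log2 fold change of the 9 was -0.15 with TGF-β1, where that of all tested genes was 0.01. Without TGF-β1 the medians were -0.38 and -0.01. Both shMTHFD2 libraries lay below both shMock libraries for 6 of the 9 genes with TGF-β1 and for 8 without it, and all tested genes did so in 27.4% and 30.1%. With TGF-β1 they lay above both shMock libraries for 1 gene, HLA-C. The share of all tested genes above was not counted.

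TGF-β1 was then compared with control in each line, which asks how activation of the fibroblasts moves the pathway. In shMock cells 6 of the 9 genes fell with TGF-β1, namely PSMB9, HLA-E, PSMB8, TAP1, HLA-C and HLA-B, and none rose. In shMTHFD2 cells PSMB9 and HLA-E fell, and none rose. TGF-β1 moved much of the transcriptome: 18.1% of all tested genes fell and 17.3% rose in shMock, and 11.0% fell and 12.8% rose in shMTHFD2. The median log2 fold change of the 9 genes was -0.28 in shMock and -0.13 in shMTHFD2, and that of all tested genes was -0.02 and -0.01. In shMock both TGF-β1 libraries were below both control libraries for 7 of the 9 genes, and in shMTHFD2 for 5 (36.0% and 30.4% of all tested genes). Each hairpin comparison shares a group of libraries with each TGF-β1 comparison, and shMock control is the baseline of both the hairpin comparison without TGF-β1 and the TGF-β1 comparison in shMock, so the fold changes are not independent.

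**Figure D2:**
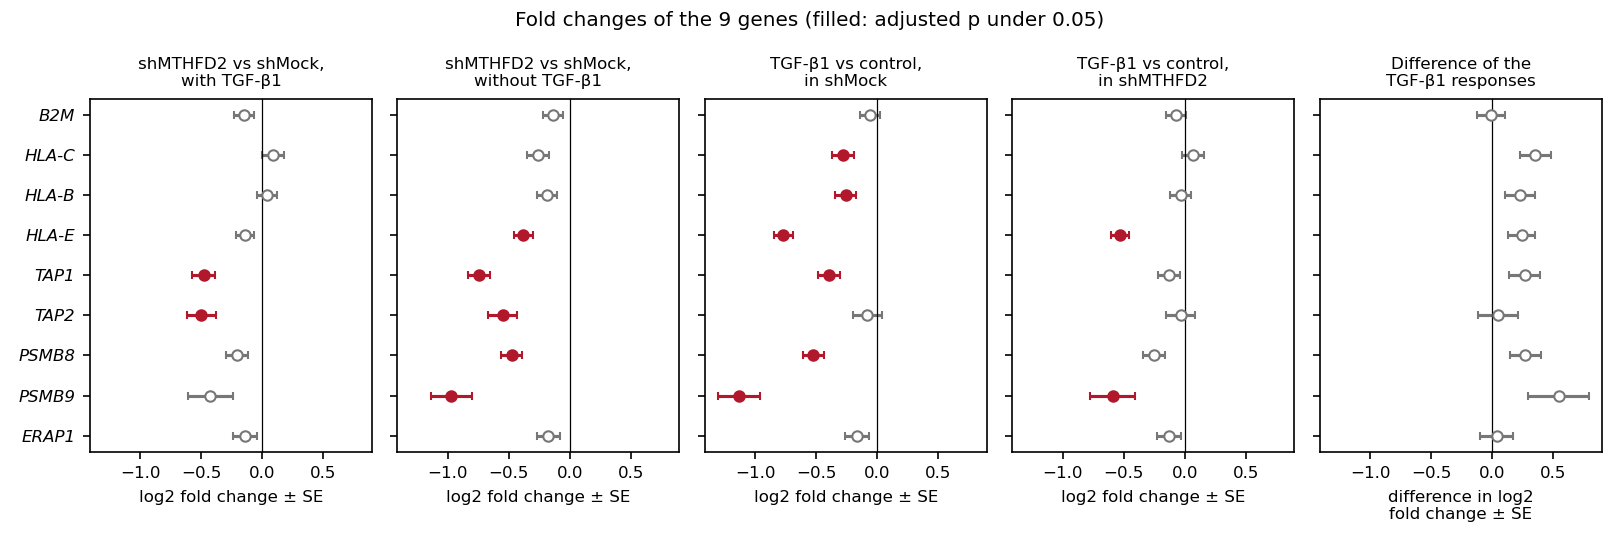
Log2 fold change ± SE of the 9 genes in the 4 comparisons and, at the right, the difference between the TGF-β1 responses of the lines. Filled points passed the threshold, 2, 5, 6, 2 and 0 of the 9 from left to right, and all of these lie below 0.

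The transporter genes were lower in shMTHFD2 under both conditions. TAP1 had 115 and 112 CPM in shMTHFD2 TGF-β1, 144 and 174 CPM in shMock TGF-β1, 128 and 121 CPM in shMTHFD2 control, and 207 and 211 CPM in shMock control. Its shMTHFD2 libraries lay below its shMock libraries with and without TGF-β1. TAP1 was 1.40-fold lower with TGF-β1 (log2 difference -0.48, SE 0.09, edgeR adjusted p = 0.00300) and 1.68-fold lower without it (-0.75, SE 0.09, adjusted p = 9.10e-05). TGF-β1 lowered it in shMock (log2 fold change -0.40, SE 0.09, adjusted p = 0.00312), while in shMTHFD2 the log2 fold change was -0.13 with an adjusted p of 0.356. TAP1 kept its 3 calls under every alternative that was run.

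TAP2, the other subunit of the pump, had 51.4 and 68.4 CPM in shMTHFD2 TGF-β1, 77.5 and 92.3 CPM in shMock TGF-β1, 59.4 and 63.3 CPM in shMTHFD2 control, and 88.2 and 91.5 CPM in shMock control. The levels followed the hairpin, and within a line the TGF-β1 and control libraries overlapped. TAP2 was 1.42-fold lower in shMTHFD2 with TGF-β1 (log2 difference -0.50, SE 0.12, edgeR adjusted p = 0.0124) and 1.46-fold lower without it (-0.55, SE 0.12, adjusted p = 0.00696). Its TGF-β1 response was 1.06-fold down in shMock and 1.02-fold down in shMTHFD2, neither past the threshold. Both TAP2 calls depended on single libraries: the adjusted p was 0.0977 without shMock TGF-β1 replicate 2 and 0.128 without shMTHFD2 TGF-β1 replicate 1, and in control cells 0.0577 without shMock control replicate 2 and 0.0516 without shMTHFD2 control replicate 1. Per length, TAP1 stood at 3.73 ± 0.829 times TAP2 in shMTHFD2 TGF-β1, 3.59 ± 0.0470 in shMock TGF-β1, 3.90 ± 0.345 in shMTHFD2 control and 4.47 ± 0.0575 in shMock control.

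The immunoproteasome genes were highest in shMock control and lower in each of the other 3 groups. PSMB9, which takes the place of the constitutive subunit PSMB6, had 10.7 and 8.49 CPM in shMTHFD2 TGF-β1, 10.3 and 15.5 CPM in shMock TGF-β1, 15.1 and 13.8 CPM in shMTHFD2 control, and 27.8 and 28.9 CPM in shMock control. Only the shMock control libraries stood clear of all the others. It was 1.96-fold lower in shMTHFD2 without TGF-β1 (log2 difference -0.97, SE 0.17, edgeR adjusted p = 0.00178). Under TGF-β1 the hairpin difference was 1.35-fold, with overlapping libraries and an adjusted p of 0.149, which became 0.0342 without shMock TGF-β1 replicate 1. TGF-β1 lowered PSMB9 2.20-fold in shMock (adjusted p = 0.000115) and 1.51-fold in shMTHFD2 (adjusted p = 0.0268). The call in shMTHFD2 was lost without shMTHFD2 control replicate 1 (0.110) or shMTHFD2 TGF-β1 replicate 2 (0.201).

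PSMB8, the counterpart of PSMB5, had 58.5 and 51.1 CPM in shMTHFD2 TGF-β1, 60.5 and 66.2 CPM in shMock TGF-β1, 66.5 and 64.2 CPM in shMTHFD2 control, and 88.9 and 93.2 CPM in shMock control. As for PSMB9, shMock control stood apart, while the other 3 groups lay close together. Without TGF-β1 it was 1.39-fold lower in shMTHFD2 (log2 difference -0.48, SE 0.09, edgeR adjusted p = 0.00262), and with TGF-β1 the fold was 1.16 with an adjusted p of 0.152. TGF-β1 lowered PSMB8 1.44-fold in shMock (adjusted p = 0.000297). In shMTHFD2 the response was 1.19-fold down with an adjusted p of 0.0539, and it passed the threshold on library totals alone (0.00983), with offsets for GC content and length (0.0333), without shMock TGF-β1 replicate 2 (0.0485) and without shMTHFD2 TGF-β1 replicate 1 (0.0332).

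The constitutive subunits PSMB5, PSMB6 and PSMB7 passed the threshold in no comparison, with log2 fold changes of -0.21 to 0.21. Set over its constitutive counterpart per length, PSMB9 stood at 0.110 and 0.0985 times PSMB6 in shMTHFD2 TGF-β1, 0.126 and 0.203 in shMock TGF-β1, 0.178 and 0.176 in shMTHFD2 control, and 0.324 and 0.343 in shMock control. PSMB8 stood at 0.488 and 0.455 times PSMB5 in shMTHFD2 TGF-β1, 0.531 and 0.673 in shMock TGF-β1, 0.672 and 0.605 in shMTHFD2 control, and 0.817 and 0.827 in shMock control. Both ratios were highest in the 2 shMock control libraries. The third immunoproteasome subunit, PSMB10, stood at 0.272 and 0.203 times PSMB7 in shMTHFD2 TGF-β1, 0.126 and 0.177 in shMock TGF-β1, 0.209 and 0.181 in shMTHFD2 control, and 0.224 and 0.254 in shMock control. Its order of groups differed, with shMock TGF-β1 lowest. These ratios were not tested.

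**Figure D3:**
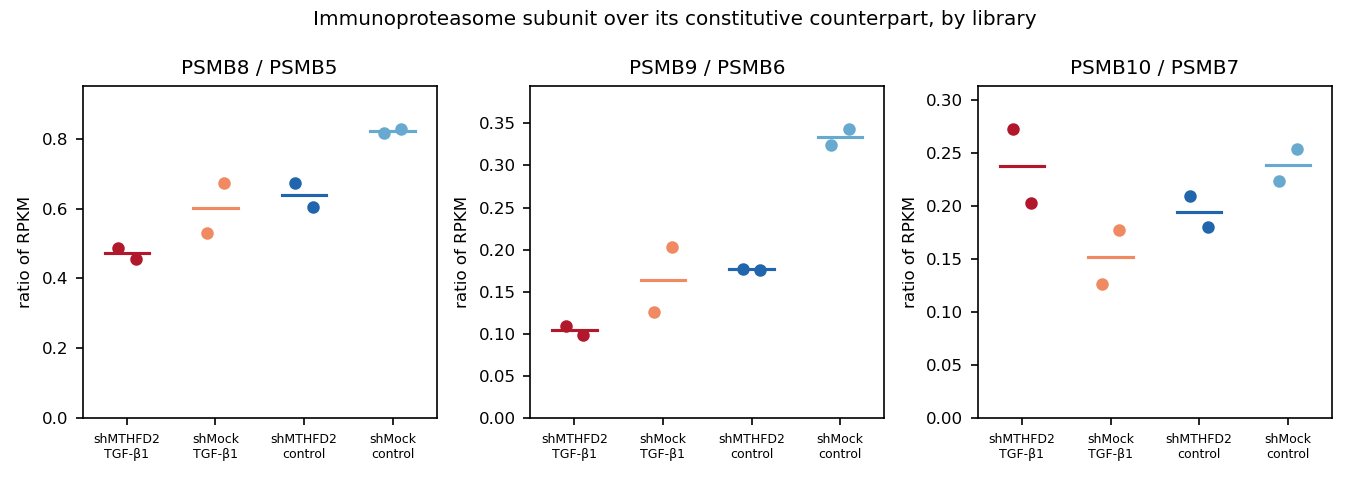
RPKM of each immunoproteasome subunit divided by that of its constitutive counterpart, by library (points) with group means (bars), on linear axes from 0. PSMB8 over PSMB5 and PSMB9 over PSMB6 are lowest in shMTHFD2 TGF-β1, at 0.472 and 0.104 on average, and highest in shMock control, at 0.822 and 0.334, while PSMB10 over PSMB7 is lowest in shMock TGF-β1, at 0.152.

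Of the 3 heavy chains HLA-E had the largest fold changes. It had 354 and 369 CPM in shMTHFD2 TGF-β1, 397 and 401 CPM in shMock TGF-β1, 542 and 503 CPM in shMTHFD2 control, and 674 and 688 CPM in shMock control. The groups did not overlap, and the 2 TGF-β1 groups were below the 2 control groups. TGF-β1 lowered HLA-E 1.71-fold in shMock (log2 response -0.77, SE 0.08, edgeR adjusted p = 1.55e-06) and 1.45-fold in shMTHFD2 (-0.53, SE 0.08, adjusted p = 8.97e-05). Both of these calls held under every alternative run. Without TGF-β1 it was 1.3-fold lower in shMTHFD2 (-0.38, SE 0.08, adjusted p = 0.00463), a call lost without shMock control replicate 2 (0.0758) or shMTHFD2 control replicate 2 (0.0817). With TGF-β1 the hairpin difference was 1.10-fold with an adjusted p of 0.256, and it passed the threshold with offsets for GC content and length (log2 fold change -0.25, adjusted p = 0.0316).

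HLA-C had 865 and 830.2 CPM in shMTHFD2 TGF-β1, 781 and 813 CPM in shMock TGF-β1, 878 and 739.9 CPM in shMTHFD2 control, and 989.9 and 951 CPM in shMock control. Its shMock control libraries were above the rest, and the shMTHFD2 control libraries spread across both TGF-β1 groups. HLA-C fell 1.22-fold with TGF-β1 in shMock (log2 fold change -0.28, SE 0.09, edgeR adjusted p = 0.0221). In shMTHFD2 its log2 fold change with TGF-β1 was 0.07 (adjusted p = 0.653). The hairpin difference was -0.26 without TGF-β1 (adjusted p = 0.0732) and 0.09 with it (adjusted p = 0.574). The difference without TGF-β1 passed the threshold with DESeq2 (0.0248), without the expression filter (0.0384) and without shMTHFD2 control replicate 1 (0.0292).

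Like HLA-C, HLA-B presents peptides broadly. HLA-B had 603 and 588 CPM in shMTHFD2 TGF-β1 and 558 and 601 CPM in shMock TGF-β1. Without TGF-β1 it had 649.8 and 569 CPM in shMTHFD2 control and 691 and 698 CPM in shMock control. Again the shMock control libraries were highest and the other 3 groups overlapped. It fell 1.20-fold with TGF-β1 in shMock (log2 response -0.26, SE 0.08, edgeR adjusted p = 0.0259) and its log2 fold change in shMTHFD2 was -0.03 (adjusted p = 0.823). Neither hairpin comparison passed the threshold, with log2 fold changes of 0.04 with TGF-β1 and -0.19 without it. The falls of HLA-B and HLA-C in shMock were small and depended on the processing. With offsets for GC content (60.1% in HLA-B, 61.3% in HLA-C) and length, their log2 fold changes were -0.046 and -0.041 (adjusted p = 0.652 and 0.706). Leaving out single libraries ended the HLA-B call without shMock control replicate 1 (0.0834) or 2 (0.156), shMock TGF-β1 replicate 1 (0.134) or shMTHFD2 TGF-β1 replicate 1 (0.0601), and the HLA-C call without shMock control replicate 1 (0.112) or 2 (0.0825) or shMock TGF-β1 replicate 1 (0.0909). Per length, HLA-E stood at 0.255 ± 0.0152 times HLA-C in shMTHFD2 TGF-β1, 0.299 ± 0.00674 in shMock TGF-β1, 0.388 ± 0.0264 in shMTHFD2 control and 0.420 ± 0.0179 in shMock control.

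B2M, the light chain that all these heavy chains share, was the most abundant of the 9 per length and passed the threshold in no comparison. It had 1558 and 1423 CPM in shMTHFD2 TGF-β1, 1666 and 1649.6 CPM in shMock TGF-β1, 1540.1 and 1601 CPM in shMTHFD2 control, and 1684 and 1780.1 CPM in shMock control. The shMTHFD2 libraries lay below the shMock libraries under both conditions, by a fold of 1.11 with TGF-β1 and 1.10 without it, and neither difference passed the threshold (edgeR adjusted p = 0.251 and 0.316). Its TGF-β1 responses were 1.04-fold down in shMock and 1.05-fold down in shMTHFD2 (adjusted p = 0.589 and 0.572). The SE of each of these log2 fold changes was 0.08.

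ERAP1, the trimming enzyme, had 51.8 and 51.9 CPM in shMTHFD2 TGF-β1, 58.8 and 55.4 CPM in shMock TGF-β1, 53.7 and 59.8 CPM in shMTHFD2 control, and 69.4 and 58.7 CPM in shMock control. Its control groups overlapped, and its 4 log2 fold changes ran from -0.18 to -0.13 with an SE of 0.10 and adjusted p-values of 0.202 to 0.390 (edgeR). The TGF-β1 response in shMock, 1.12-fold down, passed the threshold on library totals alone (0.0179) and with offsets for GC content and length (0.0132).

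Whether the TGF-β1 response differed between the lines was tested as an interaction, the log2 response in shMTHFD2 minus that in shMock. None of the 9 genes passed the threshold with edgeR, and 8 of the 9 differences were positive, with a median of 0.24 against 0.02 for all tested genes. Over all tested genes 0.0371% were called higher and 0.0519% lower, 12 genes in all. At an unadjusted p under 0.05 were HLA-C (difference 0.35, SE 0.13), PSMB9 (0.54, SE 0.25) and HLA-E (0.24, SE 0.11), so 3 of the 9, where 12.7% of all tested genes were. Their adjusted p-values were 0.289, 0.389 and 0.384. DESeq2 called 105 genes and none of the 9 (it gave no adjusted p for PSMB9). The calls in shMock that were absent in shMTHFD2, those of TAP1, PSMB8, HLA-B and HLA-C, are therefore not shown to differ between the lines.

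Other genes of the pathway were read from lists chosen by function. Of 6 further class I and class I-like genes, HLA-G had no counts, HLA-F was under 1 CPM, and 4 were tested. MICA and MICB, stress-induced ligands of a natural killer cell receptor, were lower in shMTHFD2. MICB had 36.0 and 37.4 CPM in shMTHFD2 TGF-β1, 50.3 and 47.5 CPM in shMock TGF-β1, 29.5 and 33.2 CPM in shMTHFD2 control, and 45.2 and 50.1 CPM in shMock control. Its log2 differences were -0.41 with TGF-β1 and -0.60 without it (edgeR adjusted p = 0.0132 and 0.00106), and those of MICA were -0.34 and -0.37 (adjusted p = 0.00915 and 0.00587). Like TAP2, both followed the hairpin and passed the threshold in neither TGF-β1 comparison. The MICA calls were lost without shMock TGF-β1 replicate 1 (0.0667), shMTHFD2 TGF-β1 replicate 1 (0.0619) or 2 (0.0576) and, in control cells, shMock control replicate 2 (0.0950), and the MICB call with TGF-β1 was lost without shMock TGF-β1 replicate 1 (0.0964) or shMTHFD2 TGF-β1 replicate 1 (0.0805). HFE, a class I-like regulator of iron uptake, fell with TGF-β1 in both lines (log2 fold changes of -0.58 in shMock and -0.59 in shMTHFD2, adjusted p = 0.000923 and 0.00107).

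The peptide-loading genes divided. TAPBP, which encodes tapasin, the bridge between the transporter and the heavy chain, had 177 and 179.7 CPM in shMTHFD2 TGF-β1, 178 and 169.7 CPM in shMock TGF-β1, 226 and 204 CPM in shMTHFD2 control, and 276 and 257 CPM in shMock control. It fell with TGF-β1 in shMock (log2 fold change -0.62, edgeR adjusted p = 2.48e-05) and in shMTHFD2 (-0.27, adjusted p = 0.0232), and was lower in shMTHFD2 than in shMock without TGF-β1 (-0.31, adjusted p = 0.0219). The fall in shMTHFD2 was lost without shMTHFD2 control replicate 1 (0.154), shMTHFD2 TGF-β1 replicate 1 (0.117) or replicate 2 (0.0981), and the hairpin difference on library totals alone (0.0577) and without shMock control replicate 1 (0.160) or 2 (0.0856) or shMTHFD2 control replicate 2 (0.235). Its relative TAPBPL also fell in shMock (log2 fold change -0.53, adjusted p = 0.00997), a call lost with offsets for GC content and length (0.0741) and without shMock control replicate 1 (0.188). The general chaperones of the endoplasmic reticulum CALR, CANX and PDIA3 rose with TGF-β1 in shMock (log2 fold changes of 0.42, 0.48 and 0.42) and in shMTHFD2 (0.60, 0.29 and 0.44), opposite in sign to TAPBP. The CANX call in shMTHFD2 (adjusted p = 0.0266) was lost on library totals alone (0.130) and without shMock control replicate 2 (0.0515), shMTHFD2 control replicate 1 (0.218), shMTHFD2 TGF-β1 replicate 1 (0.0503) or 2 (0.227). Of the 6 loading genes, PDIA3 was lower in shMTHFD2 with TGF-β1 (log2 difference -0.34), and PDIA3, CALR and TAPBP were lower without it (-0.35, -0.41 and -0.31), with none higher. The PDIA3 call without TGF-β1 was lost when any 1 of the 4 control libraries was left out (0.0512 to 0.206), and that with TGF-β1 on library totals alone (0.0674), with offsets for GC content and length (0.0591) and without shMock TGF-β1 replicate 1 (0.229) or either shMTHFD2 TGF-β1 library (0.107 and 0.114). The CALR call was lost without shMock control replicate 2 (0.106) or shMTHFD2 control replicate 2 (0.109).

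Of the 4 immunoproteasome partners, PSMB10 and the activator subunits PSME1 and PSME2 fell with TGF-β1 in shMock (log2 fold changes of -0.66, -0.52 and -0.38, edgeR adjusted p = 0.00800, 0.000339 and 0.00752), and none was called in shMTHFD2. The PSMB10 call was lost with offsets for GC content and length (0.0523) and without shMock control replicate 2 (0.0985) or shMock TGF-β1 replicate 1 (0.0909), and the PSME2 call without the same libraries (0.153 and 0.0997). The remaining partner, the maturation factor POMP, was lower in shMTHFD2 without TGF-β1 (log2 difference -0.31, adjusted p = 0.0486), a call lost with DESeq2 (0.0575), without shMock control replicate 2 (0.449) and in most of the other alternatives. Among the 11 other core proteasome subunits, PSMB1 and PSMB4 fell with TGF-β1 in shMock (log2 fold changes of -0.34 and -0.31) and none was called in the other 3 comparisons. Without shMock control replicate 2 neither call held (0.185 and 0.0911), and PSMB1 was also lost without either shMock TGF-β1 library (0.0655 and 0.107).

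Of 10 transcription factors of the class I genes, IRF1 was lower in shMTHFD2 with and without TGF-β1 and no other was called in either hairpin comparison. IRF1, which binds the response element, had 44.5 and 36.9 CPM in shMTHFD2 TGF-β1, 53.6 and 59.3 CPM in shMock TGF-β1, 30.5 and 26.4 CPM in shMTHFD2 control, and 50.8 and 47.6 CPM in shMock control. It was 1.39-fold lower in shMTHFD2 with TGF-β1 and 1.73-fold lower without it (edgeR adjusted p = 0.0116 and 0.000367). The first of these was lost without shMock TGF-β1 replicate 2 (0.0732) or shMTHFD2 TGF-β1 replicate 2 (0.115). Unlike PSMB9 and HLA-E, IRF1 rose with TGF-β1 in shMTHFD2 (log2 fold change 0.52, adjusted p = 0.00316, but 0.0531 without shMTHFD2 TGF-β1 replicate 1). NLRC5, the class I coactivator, had 76.7 and 75.3 CPM in shMTHFD2 TGF-β1, 72.6 and 111 CPM in shMock TGF-β1, 84.5 and 91.2 CPM in shMTHFD2 control, and 112 and 103 CPM in shMock control, and passed the threshold in no comparison. Of the 10 factors, IRF2 and RFX5 fell and NFYA and NFYB rose with TGF-β1 in shMock (log2 fold changes of -0.41, -0.25, 0.36 and 0.34), and IRF2 fell in shMTHFD2 (-0.40). These 5 calls were lost when single libraries were left out, with adjusted p-values of up to 0.211 for IRF2 in shMock without shMock control replicate 1, 0.353 for RFX5 and 0.162 for NFYA without shMock control replicate 2, 0.176 for NFYB without shMock control replicate 1, and 0.199 for IRF2 in shMTHFD2 without shMTHFD2 TGF-β1 replicate 2. The RFX5 call was lost in 13 of its 17 alternatives.

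**Figure D4:**
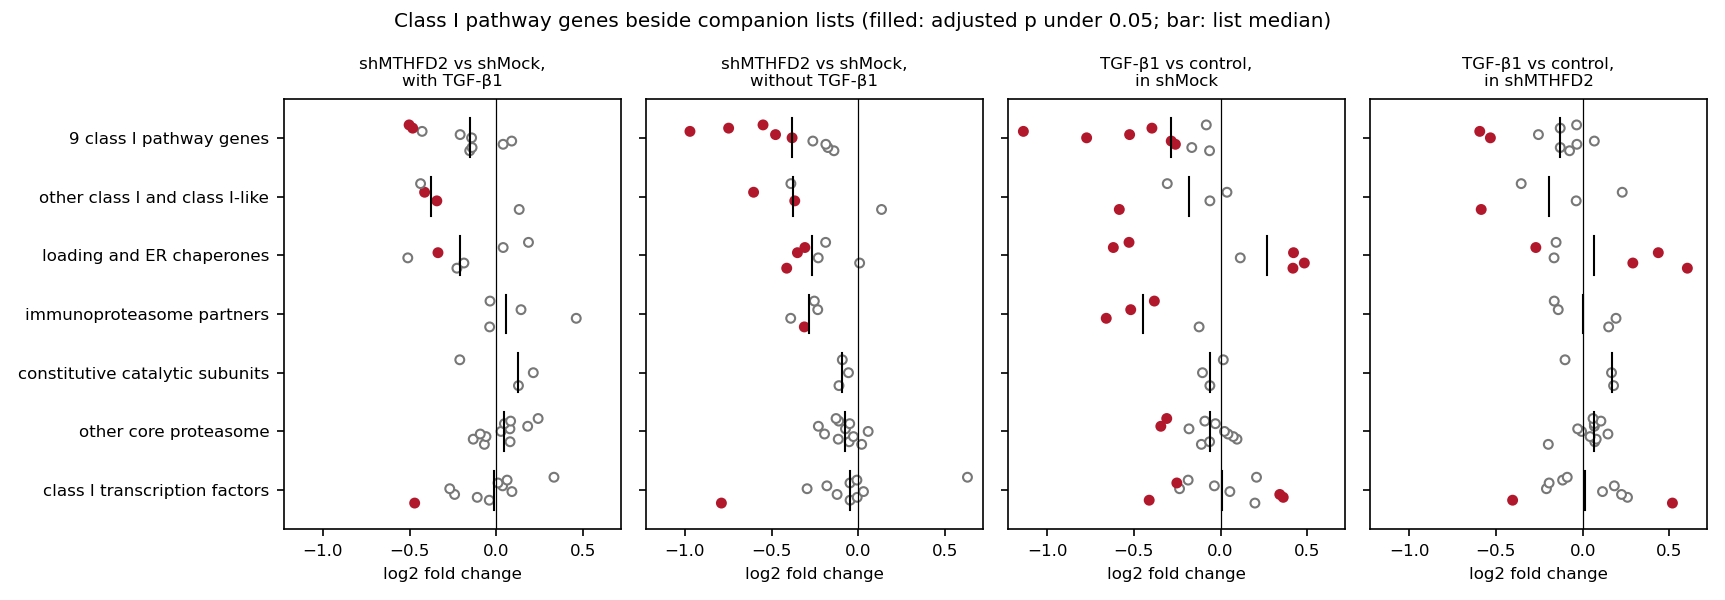
Log2 fold changes of the 9 genes and of 6 lists of related genes in the 4 comparisons. Each point is a gene, filled where it passed the threshold, and bars mark list medians. The constitutive catalytic subunits have no filled point, and the loading and chaperone genes have filled points on both sides of 0 in the TGF-β1 comparisons.

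A leukocyte marker that is also expressed outside leukocytes, CD68, moved with HLA-E and PSMB9. CD68 stood at 48.6 ± 2.66 CPM in shMTHFD2 TGF-β1, 55.8 ± 3.80 in shMock TGF-β1, 75.1 ± 0.953 in shMTHFD2 control and 103 ± 3.97 in shMock control. It made up nearly all of the summed level of the 4 leukocyte markers, 47.2 to 106 CPM over the libraries. PTPRC and CD3E were at or near 0. The summed endothelial markers were 40.8 to 43.4 CPM in shMTHFD2 TGF-β1, 43.3 to 48.9 in shMock TGF-β1, 96.8 to 104 in shMTHFD2 control and 98.9 to 110.1 in shMock control. Most of that sum was TEK, a receptor of angiopoietins, at 37.9 ± 1.02 CPM in shMTHFD2 TGF-β1, 42.3 ± 3.26 in shMock TGF-β1, 88.4 ± 5.01 in shMTHFD2 control and 90.9 ± 7.18 in shMock control. KDR, a receptor of vascular endothelial growth factor, stood at 2.85 ± 0.297 CPM in shMTHFD2 TGF-β1, 2.39 ± 0.461 in shMock TGF-β1, 9.80 ± 0.171 in shMTHFD2 control and 11.7 ± 0.957 in shMock control. Both fell with TGF-β1. The log2 fold changes of TEK were -1.10 in shMock and -1.22 in shMTHFD2 (edgeR adjusted p = 2.31e-07 and 9.39e-08), and those of KDR were -2.29 and -1.78 (adjusted p = 1.31e-06 and 1.83e-05). The part of these markers in the falls of the 9 genes with TGF-β1 was not tested. In bulk libraries fewer cells of a kind and less RNA per cell cannot be told apart.

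To place the joint pattern, the mean of the 9 genes' log2 CPM, centred on its own mean, was set beside every tested protein-coding gene over the 8 libraries. The 5 outside genes with the smallest root-mean-square difference from it were HRAS (0.0516), TNFAIP1 (0.0527), ARSK (0.0621), TRAM1 (0.0641) and C2 (0.0675). Within the 9, PSMB8 lay nearest to the joint pattern (0.0643) and PSMB9 farthest (0.376), with the others at 0.150 to 0.203. The 5 outside genes were picked as the nearest of all those ranked, so their small differences follow from that choice. Set beside those of the members, they do not show how alike the 9 genes are. The difference counts the size of a change as well as its shape, so a gene that follows the pattern with larger swings lies far from it. These values rank 12028 genes and are a description.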

How the data were processed

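STAR 2.7.1a, DESeq2 1.32.0 and GRCh38 appear in the submitters' processing notes. For the counter, annotation, strand setting and filters, details were not given in the sources used here. What the authors deposited are whole-number counts per gene, not normalised, in a table titled as FPKM. Symbols were found for 60437 of 60666 IDs, and positions came from GENCODE 29. Only genes that averaged 1 CPM or more were kept (13493, holding 99.8 to 99.9% of counts). edgeR 4.0.16 in R 4.3.3 fitted all 8 libraries at once, with TMM factors (0.914 to 1.07), a mean per group and 4 residual degrees of freedom. Its quasi-likelihood test was adjusted over all tested genes by Benjamini-Hochberg at 0.05. The common biological coefficient of variation was 8.79%. A floor of 3 counts corresponds to 0.135 to 0.172 CPM, for counting error only. SEs were derived from the fold change and the F statistic and are approximate. RPKM used the length of the principal transcript. The procedure was tested on simulated counts for the hairpin comparison with TGF-β1. It called 46.4% of the genes changed by a log2 of 0.5 and 85.9% of those changed by 1. A gene that did not pass the threshold is therefore not shown to be unchanged. Alternatives were median-of-ratios factors, library totals alone, DESeq2 1.42.0, other filters, IDs of a symbol summed, offsets for GC content and length, a replicate block, the 4 compared libraries alone, and each library left out. The 9 genes, the companion lists and the rule for naming genes (up to 2 higher and 2 lower per list and comparison) were chosen with earlier results of these data known. CANX, CALR, TAPBP and PSME2 were named beyond that rule in 1 comparison each, after their values were seen, and not every gene the rule names is printed. A gene from each of 2 companion lists is not reported here, and the counts of those lists leave it out.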

Additional observations from a re-analysis of the deposited data

How the results depend on the processing

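Over 45 fold changes of the 9 genes and their alternatives, 756 values were computed, of which 707 kept direction and side of the threshold, 21 reversed, 17 lost and 11 gained a call. Calls of TAP1 (both hairpin comparisons and TGF-β1 in shMock), PSMB8 and PSMB9 (hairpin without TGF-β1, TGF-β1 in shMock) and HLA-E (TGF-β1 in both lines) held in all of them. Replicate numbers did not pair the libraries (correlations of deviations -0.0203 to 0.0687). A replicate block called 1734, 1530, 4753, 3194 and 13 genes, against 1762, 1543, 4776, 3214 and 12 without it, and changed no call of the 9. Leaving out 1 library gave 841 to 1820 called genes for the hairpin with TGF-β1, 585 to 1681 without it, 3296 to 4799 for TGF-β1 in shMock, 2371 to 3363 in shMTHFD2 and 3 to 192 for the interaction. The 9 genes then gave 1 to 3, 3 to 5, 4 to 6, 1 to 3 and 0 lower calls. The interaction gave 105 genes with DESeq2, 321 with no filter and 19 with GC and length offsets.

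On library totals alone the all-gene median of log2 values was 0.10, 0.06, -0.16 and -0.12, against 0.01, -0.01, -0.02 and -0.01. The calls were then 1338 higher and 717 lower, 755 and 740, 1570 and 3932, and 1222 and 2455, against 652 and 1110, 438 and 1105, 2333 and 2443, and 1725 and 1489. Of the 9 genes, 7 and 3 then fell with TGF-β1 in shMock and shMTHFD2.

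Reversed log2 values were all small and uncalled, and the cause was not tested. With GC and length offsets HLA-B was -0.084 and HLA-C -0.050 for the hairpin with TGF-β1, and B2M 0.12 for the interaction. On library totals alone HLA-C was -0.047 for TGF-β1 in shMTHFD2 and B2M 0.011 for the interaction. Leaving out 1 library gave -0.0072 to 0.093 for HLA-B (hairpin with TGF-β1). It gave -0.10 to 0.00045 for B2M and -0.21 to 0.043 for TAP2 (TGF-β1 in shMock), and -0.14 to 0.051 for HLA-B, -0.061 to 0.18 for HLA-C and -0.26 to 0.15 for TAP2 (TGF-β1 in shMTHFD2). For the interaction it gave -0.10 to 0.052 for B2M, -0.17 to 0.22 for TAP2 and -0.090 to 0.12 for ERAP1.

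Depth limits PSMB9 most of the 9: it had 167 to 619 counts per library, and its SEs were 0.17 to 0.19 in the 4 pairwise comparisons. The fit of the 4 compared libraries alone was not possible for the interaction, which needs all 8.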
